A study of Homo sapiens with 4 samples.

Results

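The comparison described here set the untreated encorafenib-resistant A375 line, A375-R, against the untreated sensitive line, A375-S, with 1 library of each, which are 2 of the 4 libraries of the study. The members are every gene and every mature microRNA counted in those libraries, chosen by group label alone. The gene tables held 46416 rows, of which 8865 reached 10 counts in at least 1 of the 4 libraries, and 7916 of these were protein-coding. The microRNA tables held 644 rows, of which 190 reached the same minimum. A375 is an established human melanoma cell line, and all groups were labelled as BRAF-mutated and were grown in high-glucose DMEM with fetal bovine serum. The groups are untreated A375-R, untreated A375-S, A375-R given 10 nM encorafenib for 48 h, and A375-S given the same dose for the same time. The treated pair is quoted only beside results of the untreated pair. How A375-R was derived, whether it is 1 clone and whether it was kept under drug is not stated in the labels.

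Encorafenib is an ATP-competitive inhibitor of mutant BRAF, a kinase that keeps the MEK and ERK kinases active in melanoma cells. Melanoma lines become resistant to such inhibitors by reactivating that cascade or by shifting cell state, and resistant lines are often compared with their parents without drug so that stable differences are separated from the drug response. All libraries were made by a small RNA method (SMARTer smRNA-Seq), so protein-coding counts here are those of small RNA libraries. Protein-coding genes took 1.42% of gene-table counts in untreated resistant and 1.29% in untreated sensitive cells. MicroRNAs pair with target mRNAs through a short seed near the 5′ end, C/D box and H/ACA box small nucleolar RNAs (snoRNAs) guide chemical modification of ribosomal RNA, and tRNAs carry amino acids to the ribosome.

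The gene table of untreated resistant cells summed to 23029101 counts and that of untreated sensitive cells to 33664470, of which protein-coding genes took 326919 and 435351. MicroRNA-table totals were 20808 and 7041. The limit that a count of 0 allows, 3 counts, stands at 9.18 CPM of protein-coding counts in resistant and 6.89 CPM in sensitive cells. Equal levels correspond to 0.734 counts in resistant cells per count in sensitive cells in the gene table, and to 1.67 in the microRNA table. Differences are log2 ratios of scaled counts, resistant over sensitive, with 95% counting intervals in parentheses, and a gene is called beyond 2-fold where the bound nearest 0 is at least 1 in log2. With 1 library per group there was no test, and intervals cover counting error only, so every value compares these libraries and not the conditions. The melanocyte factors SOX10 (94 and 157 counts in resistant and sensitive cells) and MITF (19 and 31 counts) were detected in both. The pigment genes MLANA, TYR and PMEL had 0 counts in both. Of 15 immune markers 2 reached the minimum, and the list summed to 35 counts in resistant and 8 in sensitive cells. Both had an interval above 0, with log2 ratios of 2.24 and 3.62, and 1 was higher beyond 2-fold. Of the 15, 12 had 0 counts in both libraries, PTPRC and CD3E among them. Fibroblast markers summed to 5 and 15 counts, endothelial markers to 5 and 1, and epithelial markers to 69 and 109. The part of other cell types in the results was not tested.

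Resistant cells had more transcript of TIMP1, TFRC, FTH1 and CD55 than sensitive cells, higher list medians of glycolytic, interferon-stimulated and protease and inhibitor genes, and less transcript of replication histones and mitotic genes. Beyond 2-fold, 80 protein-coding genes were higher in resistant cells (1.01% of those tested) and 64 were lower (0.808%). Without rows that were identical to another row or overlapped a small RNA gene, 79 were higher and 62 lower of 7272. The median log2 ratio over all protein-coding genes tested was -0.02.

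**Figure D1:**
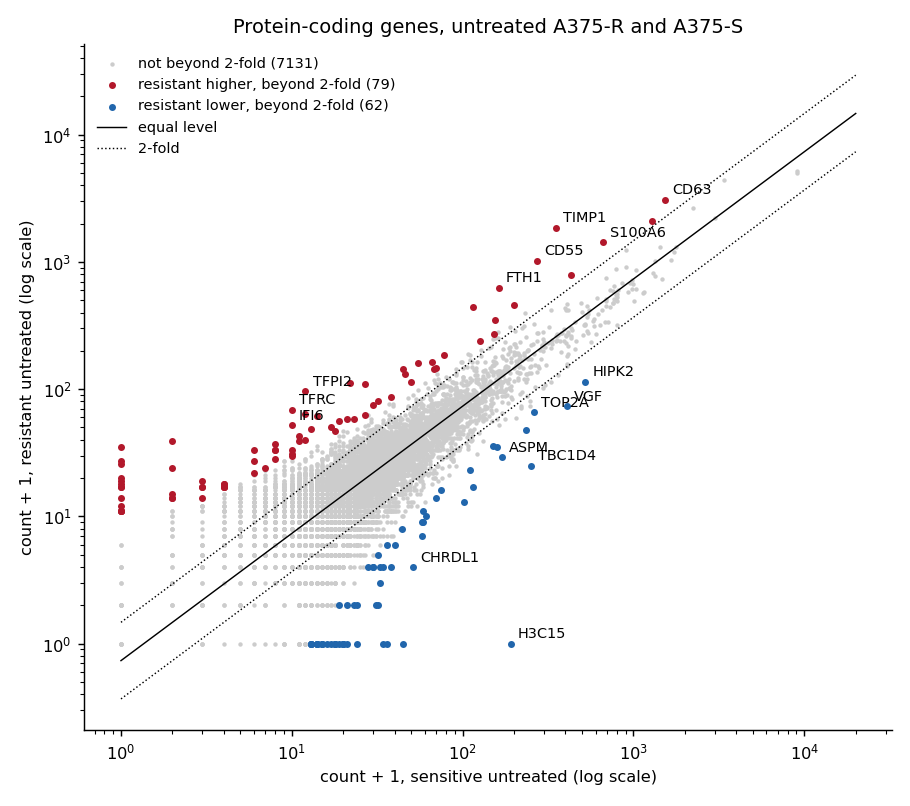
Counts plus 1 of 7272 protein-coding genes in untreated resistant cells (y axis) and untreated sensitive cells (x axis), both on log scales. The solid line marks equal levels after scaling and the dotted lines 2-fold; 79 red genes lie above and 62 blue genes below, with TIMP1 at 1855 and 350 counts and H3C15 at 0 and 190 counts.

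TIMP1, a secreted inhibitor of matrix metalloproteinases, led the genes that were higher. It had 1855 counts in untreated resistant and 350 in untreated sensitive cells, against 488 in treated resistant and 58 in treated sensitive cells. Both resistant libraries stood above the sensitive library of the same treatment, with log2 ratios of 2.85 (2.69 to 3.02) in the untreated and 2.57 (2.18 to 3.00) in the treated pair. TFPI2, a secreted serine protease inhibitor, had 95 and 11 counts in untreated resistant and sensitive cells and 7 and 2 in treated ones, and its untreated log2 ratio was 3.50 (2.65 to 4.61). TIMP3, a matrix-bound relative of TIMP1, had 460 and 198 counts untreated and 165 and 57 treated, a log2 ratio of 1.66 (1.42 to 1.91) without drug. SERPINE2, an inhibitor of thrombin and urokinase, had 2098 and 1290 counts, a log2 ratio of 1.15 (1.05 to 1.25). MMP1, the collagenase that TIMP1 inhibits, had 16 counts in resistant cells and 0 in sensitive cells, 7.27-fold higher with the floor of 3 counts in place of 0. Among 21 proteases and protease inhibitors tested, these 5 were higher beyond 2-fold (23.8%) and 0 were lower. Over all protein-coding genes tested the shares were 1.01% and 0.808%. The list's median was 0.88, or 0.79 when members without counts in a library take the floor, beside -0.02 over all protein-coding genes.

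Of the iron genes, the import receptor and the ferritin heavy chain were higher in resistant cells, while the list as a whole lay near 0. TFRC, the transferrin receptor, had 68 counts in untreated resistant and 9 in untreated sensitive cells, and 46 and 10 counts in treated resistant and sensitive cells. FTH1, the heavy chain of the iron store ferritin, had 627 and 162 counts without drug and 1361 and 263 with drug. Their untreated log2 ratios were 3.30 (2.36 to 4.55) and 2.40 (2.15 to 2.66), and both resistant libraries lay above the sensitive one of the same treatment. FTL, the light chain, had 306 and 318 counts, a log2 ratio of 0.39 (0.16 to 0.62). NCOA4, the receptor that delivers ferritin to the lysosome and is named in the title of the study, had 33 counts in resistant and 31 in sensitive cells, a log2 ratio of 0.54 (-0.22 to 1.29) whose interval includes 0 and a 2-fold difference. FBXL5, which marks iron-regulatory protein 2 for degradation, had 14 and 43 counts, a log2 ratio of -1.14 (-2.16 to -0.27). Over the 16 iron genes tested the median was 0.18. TFRC and FTH1 were higher beyond 2-fold (12.5%, against 1.01% of all protein-coding genes) and 0 were lower. An interval above 0 was seen in 4 (25%) and one below it in 3 (18.8%), against 10.2% and 9.65% of all protein-coding genes.

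The other leading genes that were higher in resistant cells belong to no single list. CD55, which protects cells from complement, had 1021 and 271 counts in untreated resistant and sensitive cells and 139 and 28 in treated ones, a log2 ratio of 2.36 (2.17 to 2.56) without drug. CD63, a tetraspanin of late endosomes, had 3088 and 1534 counts untreated and 3246 and 1308 treated, and its untreated log2 ratio was 1.46 (1.37 to 1.55). S100A6, which binds calcium, had 1426 and 662 counts untreated and 736 and 86 treated, a log2 ratio of 1.55 (1.42 to 1.69). In all 3 genes the resistant library was the higher one with and without drug. STC1, a secreted glycoprotein, had 111 and 21 counts (2.82, 2.17 to 3.60), and FERMT1, a kindlin that activates integrins, had 108 and 26 counts (2.48, 1.87 to 3.18). ATOX1, a copper chaperone, had 160 and 54 counts (2.00, 1.56 to 2.49). The rule also named ATP5F1E, POLE4, IFI6, RPP25, ITGA2, CDKN1A, PKM and ALDOA among the 20 leading genes, with log2 ratios from 1.63 to 2.91. Of these 20, 19 also had a positive ratio in the treated pair, and for 13 the treated interval lay above 0. ITGA2 was the exception in direction.

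The 20 leading genes that were lower were histones, mitotic genes and a few developmental and signalling genes. TBC1D4, a Rab GTPase-activating protein of glucose transporter traffic, had 24 and 249 counts in untreated resistant and sensitive cells and 16 and 14 in treated ones, a log2 ratio of -2.90 (-3.60 to -2.32). VGF, a neuroendocrine secreted protein, had 72 and 405 counts untreated and 29 and 20 treated, a log2 ratio of -2.04 (-2.43 to -1.68). HIPK2, a nuclear kinase of the stress response, had 113 and 520 counts untreated and 63 and 71 treated, a log2 ratio of -1.75 (-2.06 to -1.46). In these 3 genes the untreated sensitive library stood far above the other 3. CHRDL1, a secreted antagonist of bone morphogenetic proteins, had 3 and 50 counts, and EYA1, a transcriptional cofactor and phosphatase, had 9 and 60. MDM4, an inhibitor of p53, had 13 and 69 counts, a log2 ratio of -1.92 (-2.94 to -1.09), and HMCN1, an extracellular matrix protein, had 22 and 109. DPYSL2, a microtubule-binding protein of neurons, had 8 and 58 counts. Of the 20 genes that were lower, 12 also had a negative ratio in the treated pair, and for 5 the treated interval lay below 0.

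**Figure D2:**
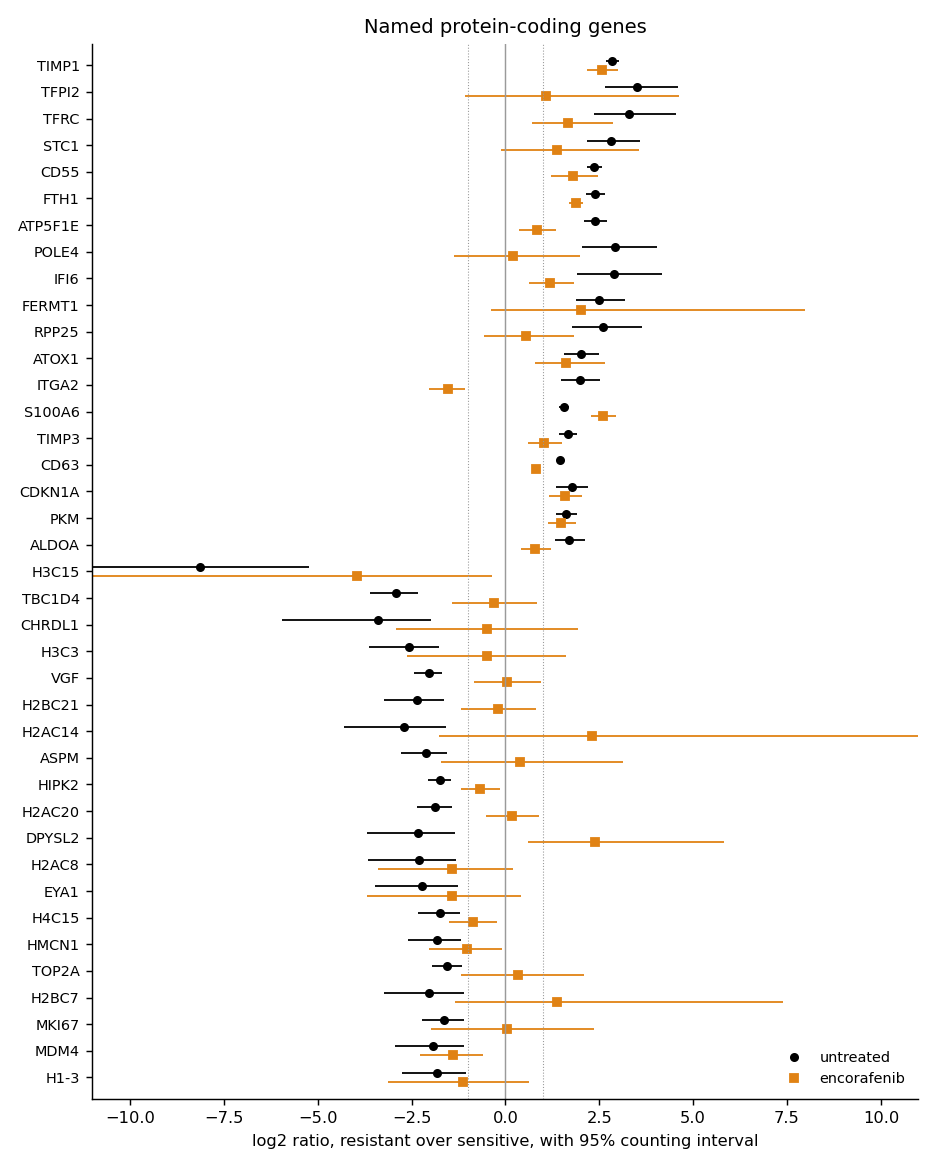
Log2 ratios, resistant over sensitive, of named protein-coding genes with 95% counting intervals; black circles are the untreated pair and orange squares the encorafenib pair, and intervals that reach an axis end run past it. TIMP1 has 2.85 and 2.57 in the 2 pairs, while VGF has -2.04 without drug and 0.03 with it.

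Replication histones, whose mRNAs are made in S phase, were lower in resistant cells. Of 55 replication histone genes tested, 16 were lower beyond 2-fold and 0 were higher, 48 had an interval below 0, and the median log2 ratio was -1.67. By comparison, 0.808% of all protein-coding genes tested were lower beyond 2-fold and 9.65% had an interval below 0. The list summed to 889 counts in resistant and 3369 in sensitive cells. H2AC20 had 47 and 235 counts in untreated resistant and sensitive cells and 46 and 29 in treated ones. H2BC21 had 16 and 114 counts untreated and 21 and 17 treated, and H3C3 had an untreated log2 ratio of -2.58 (-3.63 to -1.76). The 3 genes stood highest in the untreated sensitive library, and the list's median in the treated pair was 0.04. H3C15 had 0 counts in resistant and 190 in sensitive cells, 46.5-fold lower with the floor of 3 counts in place of 0. The interval of its fold ran from 0 to 0.0267. Histone genes have near-identical copies, so the split of reads between single copies is uncertain.

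Mitotic and DNA replication genes were lower as well. Of 42 tested, 4 were lower beyond 2-fold (9.52%), 0 were higher and 26 had an interval below 0 (61.9%). A negative ratio was seen in 41, and the median was -1.26. Of all 7916 protein-coding genes tested, 0.808% were lower beyond 2-fold, 9.65% had an interval below 0 and 4029 had a negative ratio. The list summed to 652 counts in resistant and 2048 in sensitive cells. ASPM, a spindle pole protein, had 28 and 168 counts in untreated resistant and sensitive cells and 6 and 3 in treated ones, a log2 ratio of -2.12 (-2.77 to -1.55). TOP2A, the topoisomerase that untangles replicated chromosomes, had 65 and 260 counts untreated and 11 and 6 treated, a log2 ratio of -1.54 (-1.97 to -1.16). MKI67, the proliferation marker Ki-67, had 35 and 149 counts untreated and 6 and 4 treated, a log2 ratio of -1.63 (-2.22 to -1.10). All 3 were highest in the untreated sensitive library and at 11 counts or fewer in both treated ones. CDKN1A, the cyclin-dependent kinase inhibitor p21, had 163 and 65 counts, a log2 ratio of 1.77 (1.35 to 2.21), and PHLDA3 and MDM2, also p53 targets, had log2 ratios of 1.70 (0.92 to 2.58) and 1.08 (0.67 to 1.51). Over 21 p53 regulators and targets tested the median was 0.45, with CDKN1A higher and MDM4 lower beyond 2-fold. Each is 4.76% of the list, against 1.01% higher and 0.808% lower of all protein-coding genes.

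Interferon-stimulated genes were higher in resistant cells, at low counts. ISG15, a ubiquitin-like protein, had 23 counts in untreated resistant and 1 in untreated sensitive cells, and 66 and 7 in treated ones. IFI6, a mitochondrial membrane protein, had 51 and 9 counts untreated and 107 and 33 treated. Both were higher in the resistant library of each pair, with untreated log2 ratios of 4.42 (2.35 to 10.3) and 2.88 (1.91 to 4.16). Of 33 genes tested, 2 were higher beyond 2-fold (6.06%), 0 lower, and 11 had an interval above 0 (33.3%). Over all protein-coding genes 1.01% were higher beyond 2-fold and 10.2% had an interval above 0. The list's median was 0.93, or 0.73 when members without counts in a library take the floor.

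Promoters are shown for 2 leading genes of the interferon list and 2 of the mitotic list, because the members of each list beyond 2-fold lay in 1 direction. The interferon-response element was searched as GAAA, any 2 bases and GAAA, and the cell cycle homology element as TTTGAA, on both strands, in RefSeq windows (GRCh38.p14) from 250 bases before to 50 after each gene's start. The first motif was in 16 of 27 interferon promoters with a window, against 3.20% of 15515 protein-coding promoters. TTTGAA was in 22 of 37 mitotic promoters, against 12.1%. CCAAT, the box bound by NF-Y, was in 26 of 37 mitotic promoters, against 36.5%. Matches describe letters in these windows and not factor binding. Tested members were searched whatever their ratio, so the shares describe the lists and not the difference between the lines. Capitals mark the matched motif, and overlapping matches run together.
ISG15 promoter, chr1:1013247-1013546, plus strand: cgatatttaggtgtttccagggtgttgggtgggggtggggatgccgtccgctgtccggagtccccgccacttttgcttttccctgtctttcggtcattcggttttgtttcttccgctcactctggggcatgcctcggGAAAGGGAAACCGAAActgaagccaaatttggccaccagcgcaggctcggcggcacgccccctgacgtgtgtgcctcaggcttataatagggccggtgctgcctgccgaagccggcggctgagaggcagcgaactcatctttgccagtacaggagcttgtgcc
IFI6 promoter, chr1:27672143-27672442, minus strand: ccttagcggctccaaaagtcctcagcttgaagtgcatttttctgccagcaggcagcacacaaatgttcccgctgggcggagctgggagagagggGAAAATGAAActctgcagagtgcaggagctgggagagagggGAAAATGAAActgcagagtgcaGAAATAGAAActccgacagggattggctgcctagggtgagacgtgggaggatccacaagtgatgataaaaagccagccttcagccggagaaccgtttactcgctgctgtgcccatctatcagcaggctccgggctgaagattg
TOP2A promoter, chr17:40417847-40418146, minus strand: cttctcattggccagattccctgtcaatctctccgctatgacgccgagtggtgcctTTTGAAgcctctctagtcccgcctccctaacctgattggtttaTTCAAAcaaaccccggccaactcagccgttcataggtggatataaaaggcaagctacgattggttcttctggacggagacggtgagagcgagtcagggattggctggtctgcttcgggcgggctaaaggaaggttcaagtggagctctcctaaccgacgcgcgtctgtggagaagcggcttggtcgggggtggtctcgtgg
ASPM promoter, chr1:197146620-197146919, minus strand: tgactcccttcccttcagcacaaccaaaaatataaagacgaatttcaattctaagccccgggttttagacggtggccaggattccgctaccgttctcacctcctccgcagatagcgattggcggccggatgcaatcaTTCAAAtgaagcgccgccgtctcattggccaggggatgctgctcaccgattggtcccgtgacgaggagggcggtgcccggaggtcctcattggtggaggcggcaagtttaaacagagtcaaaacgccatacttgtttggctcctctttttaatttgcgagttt

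Glycolytic, lysosomal, calcium-binding, respiratory chain and NRF2 target lists had positive medians. Beside their counts, 10.2% of all protein-coding genes had an interval above 0, 9.65% one below it, and 1.01% were higher beyond 2-fold. Of 25 glycolysis and hypoxia genes tested, 3 were higher beyond 2-fold, 0 lower and 13 had an interval above 0 (52%), with a median of 0.92. PKM, pyruvate kinase, had 347 and 153 counts (1.63, 1.35 to 1.91). ALDOA, aldolase, had 184 and 77 (1.70, 1.31 to 2.11), and NDRG1, a hypoxia-induced gene, had 74 and 29 (1.78, 1.16 to 2.47). All 14 S100 and annexin genes tested had a positive ratio, with a median of 0.77, and S100A6 was beyond 2-fold. Of 32 autophagy and lysosome genes, 17 had an interval above 0 (53.1%) and 1 below it, and the median was 0.76. PSAP, the precursor of lysosomal saposins, had a log2 ratio of 1.37 (1.06 to 1.70), and SQSTM1, an autophagy receptor, had 392 and 230 counts (1.21, 0.98 to 1.46). Of 80 nuclear-encoded respiratory chain genes, 29 had an interval above 0 (36.2%) and 0 below it, with a median of 0.50. Of 19 targets of the antioxidant factor NRF2, 8 had an interval above 0 (42.1%) and 1 below it, with a median of 0.62.

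Ribosomal protein genes lay slightly lower in resistant cells. Of 81 tested, 43 had an interval below 0 (53.1%, against 9.65% of all protein-coding genes) and 2 above it, 0 were beyond 2-fold in either direction, and the median was -0.23. By total counts the median was -0.12. Exons of 26 of the 81 overlap a small RNA gene, and the part of such overlap was not tested. Of 22 sterol and fatty acid synthesis genes, 8 had an interval below 0 (36.4%) and 0 above it, with a median of -0.22, or -1.09 over the 5 members with at least 50 counts in any library. FASN, fatty acid synthase, had 38 and 111 counts (-1.09, -1.67 to -0.56), and SCD, stearoyl-CoA desaturase, had 24 and 71 (-1.10, -1.85 to -0.43). Splicing proteins had a median of -0.24, with 9 of 52 intervals below 0 (17.3%) and 2 above it.

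Few differences were detectable among RAS, RAF, MEK and ERK genes at this depth, while some outputs of the pathway and some receptors differed. None of the 14 RAS, RAF, MEK and ERK pathway genes tested was beyond 2-fold, and 1 interval excluded 0, that of MAP2K2, the kinase MEK2, with 45 and 27 counts (1.17, 0.46 to 1.93). BRAF had 14 and 24 counts, a log2 ratio of -0.31 (-1.40 to 0.68), and these counts do not read the mutation. Among 22 outputs of the pathway the median was -0.01, with 5 intervals above 0 (22.7%) and 3 below it (13.6%). Over all protein-coding genes these shares were 10.2% and 9.65%. Of the outputs, 1 was higher and 1 lower beyond 2-fold (4.5% each), against 1.01% and 0.808% of all protein-coding genes. JUN, an AP-1 subunit, had 32 and 7 counts (2.56, 1.43 to 4.06). SPRY1, a feedback inhibitor, had 0 and 16 counts, 3.91-fold lower with the floor in place of 0. CCND1, cyclin D1, had a log2 ratio of 1.28 (0.93 to 1.64), and SPRY4, also a feedback inhibitor, had 46 and 112 counts (-0.83, -1.36 to -0.33). Of 11 receptor tyrosine kinases tested, 5 had an interval below 0 (45.5%, against 9.65% of all protein-coding genes). In 1 the interval lay above 0 (9.09%, against 10.2%), and 0 were beyond 2-fold. IGF1R, a growth factor receptor, had 55 and 130 counts (-0.79, -1.28 to -0.33) and ERBB3 had 119 and 227 (-0.48, -0.82 to -0.16), while AXL had 38 and 57 (-0.13, -0.77 to 0.48). Among 8 melanocyte lineage genes tested, GPNMB, a melanosome glycoprotein, was higher beyond 2-fold, with 32 and 5 counts (3.01, 1.75 to 4.84). That is 12.5% of the list, against 1.01% of all protein-coding genes. MITF had a log2 ratio of -0.25 (-1.17 to 0.61) and SOX10 one of -0.29 (-0.68 to 0.08).

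**Figure D3:**
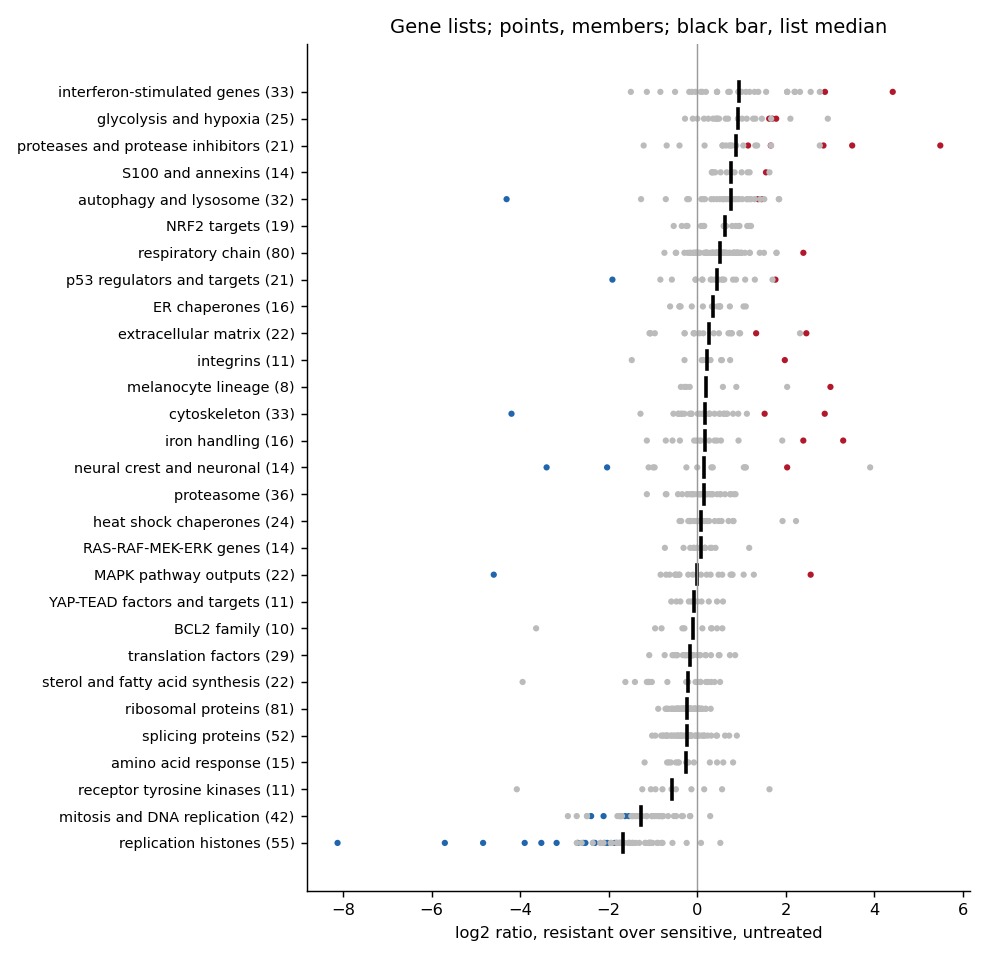
Log2 ratios, resistant over sensitive without drug, of the tested members of the gene lists shown (points; red and blue are higher and lower beyond 2-fold) with list medians as black bars; numbers in brackets are members tested. Replication histones have the lowest median, -1.67, while interferon-stimulated genes (0.93, or 0.73 with members without counts at the floor) and glycolysis and hypoxia genes (0.92) have the highest.

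Matrix, integrin and neural genes moved gene by gene. Among genes with at least 50 counts in any library the matrix median was -0.29 in place of 0.25 and the neural median -0.998 in place of 0.16. SPARC, a matrix glycoprotein, had 790 and 428 counts (2.51-fold, 2.23 to 2.84) and TGFBI, another secreted matrix protein, had 42 and 10 (5.52-fold, 2.83 to 12.8). TNC, tenascin C, had 39 and 112 counts (-1.06, -1.64 to -0.54), and HAPLN1, which links hyaluronan to proteoglycans, had 127 and 361 (-1.06, -1.36 to -0.77). ITGA2, a collagen-binding integrin subunit, had 131 and 45 counts in untreated resistant and sensitive cells and 55 and 114 in treated ones. NEFL, a neurofilament, had 55 and 18 counts (2.03, 1.27 to 2.91), whereas TFAP2B, a neural crest transcription factor, had 112 and 328 (-1.10, -1.43 to -0.79). Protein-coding ratios also moved with transcript features. The median log2 ratio ran from -0.15 in the quartile of lowest GC content to 0.13 in the highest, and from 0.12 in the shortest quartile to -0.13 in the longest. With the GC quartile median subtracted, 77 protein-coding genes were higher and 65 lower beyond 2-fold, and with the length quartile median subtracted 75 and 65, in place of 80 and 64; both were chosen after seeing the data. By chromosome, without replication histones, medians ran from -0.17 on chromosome 13 to 0.21 on chromosome 11.

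The RNA classes of the libraries differed more than the median protein-coding gene. Ribosomal RNA took 92.5% of gene-table counts in resistant and 93.8% in sensitive cells, and snoRNA 4.74% and 3.46%. tRNA took 0.187% and 0.0301%, a yield per gene-table read that was 6.22-fold (6.08 to 6.35) higher in resistant cells. These sums hold 112 tested tRNA rows identical to another row, so reads of identical copies may be counted more than once. The microRNA table's yield was 4.32-fold (4.21 to 4.44) higher, and that of snaR, a family of short noncoding transcripts of primates, 9.24-fold (8.59 to 9.95). Of the 7 snaR rows tested, 4 were identical to another row. Protein-coding yield was 1.10-fold (1.09 to 1.10) higher per gene-table read but 0.899-fold per read outside rRNA, so its direction depends on the denominator. lncRNA yield was 0.683-fold (0.677 to 0.690). Over all classes, 255 gene-table rows were higher beyond 2-fold (2.88% of 8865) and 102 were lower (1.15%).

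**Figure D4:**
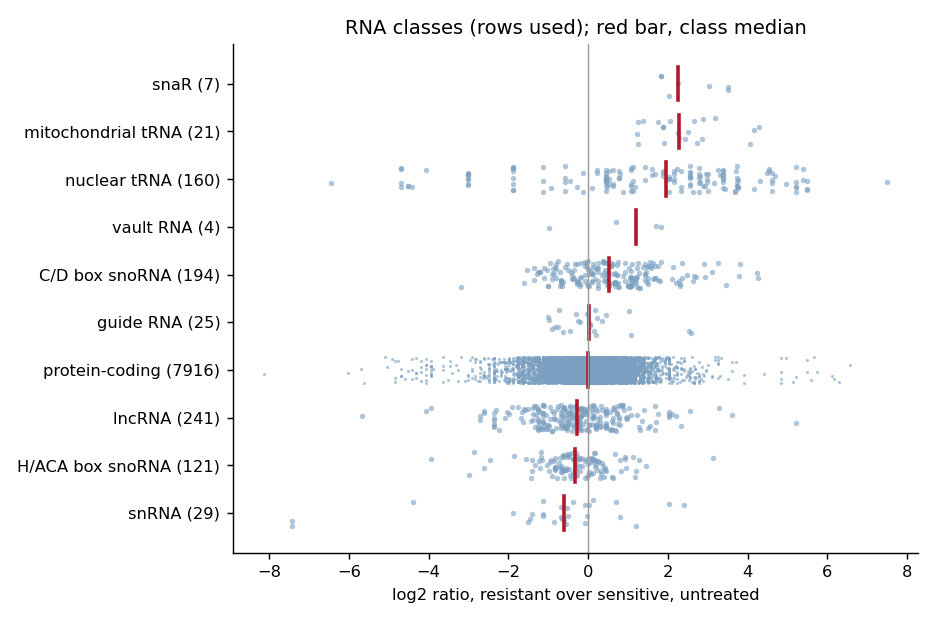
Log2 ratios, resistant over sensitive without drug, of the rows used in 10 RNA classes, with the class median as a red bar and the number of rows in brackets. Mitochondrial tRNA and snaR have medians above 2 and protein-coding genes one of -0.02. Small nuclear RNA (snRNA), shown without snaR and 7SK RNA, has one of -0.60.

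Mitochondrial tRNAs were higher in resistant cells. Of 21 tested, 18 were higher beyond 2-fold (85.7%) and 0 lower, with a median of 2.27. Of all gene-table rows tested, 2.88% were higher and 1.15% lower beyond 2-fold. TRNE, the mitochondrial tRNA for glutamate, had 3580 and 252 counts in untreated resistant and sensitive cells and 9326 and 353 in treated ones, a log2 ratio of 4.27 (4.09 to 4.46) without drug. TRNV, that for valine, had 1499 and 853 counts untreated and 3676 and 466 treated, a log2 ratio of 1.26 (1.14 to 1.38). The resistant library was the higher one in each pair. Of 160 nuclear tRNA rows, 72 were higher (45%) and 8 lower (5%) beyond 2-fold, but 112 tRNA rows were identical to another row, so single genes are uncertain. Summed by anticodon, with identical rows kept once, 24 of 33 groups with a tested gene had an interval above 0 and 0 below it. Of all single gene-table rows tested, 12.7% had an interval above 0 and 11.4% one below it. TRD-GTC, the aspartate group, had 6008 and 887 counts summed, a log2 ratio of 3.21 (3.10 to 3.31), while TRV-CAC, a valine group, had 288 and 428 counts, a log2 ratio of -0.12 (-0.35 to 0.09).

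C/D box and H/ACA box snoRNAs moved in opposite directions. Of 194 C/D box snoRNAs tested, 55 were higher (28.35%) and 6 lower (3.09%) beyond 2-fold, with a median of 0.52. Of 121 H/ACA box snoRNAs, 2 were higher (1.65%) and 7 lower (5.8%), with a median of -0.33. Over all gene-table rows tested these shares were 2.88% and 1.15%. SNORD64, a C/D box snoRNA of the imprinted Prader-Willi region, had 275 and 19 counts in untreated resistant and sensitive cells and 422 and 43 in treated ones, a log2 ratio of 4.27 (3.63 to 5.06). SNORA41 had 35 and 381 counts untreated and 57 and 261 treated (-2.98, -3.54 to -2.50), and SNORA56 had 33 and 251 untreated and 49 and 118 treated (-2.46, -3.05 to -1.95). The sequences of these 3, from GENCODE release 29 (GRCh38), show the difference in length between the classes. Capitals mark the C box TGATGA and the last CTGA in SNORD64, and the last ACA in the others. That ACA was found by its letters alone and need not be the ACA box of the class.
SNORD64, chr15:24985100-24985166, plus strand: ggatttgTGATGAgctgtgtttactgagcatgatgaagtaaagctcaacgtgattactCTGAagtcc
SNORA41, chr2:206162228-206162359, plus strand: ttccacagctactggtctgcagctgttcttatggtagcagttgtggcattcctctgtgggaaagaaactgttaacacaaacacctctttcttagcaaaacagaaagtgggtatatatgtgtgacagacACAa
SNORA56, chrX:154774998-154775126, plus strand: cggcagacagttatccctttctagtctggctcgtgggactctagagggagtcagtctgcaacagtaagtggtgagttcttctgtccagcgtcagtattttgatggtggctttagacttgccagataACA

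Length moved with the ratio among small RNAs. Those under 75 nucleotides had a median log2 ratio of 1.52 (152 rows) and those from 75 to under 90 one of 0.70 (69 rows). Those from 90 to under 120 had one of -0.07 (68 rows) and those from 120 to under 140 one of -0.30 (123 rows). At 140 nucleotides and over it was -0.12 (68 rows), so the fall did not continue there. Within C/D box snoRNAs the medians of the 3 shortest classes were 1.08, 0.68 and 0.05, and those of 120 nucleotides or longer had medians of 0.30 (4 rows, under 140) and -0.05 (14 rows, 140 and over). In the treated pair the medians of all small RNAs by length class, from the shortest, were 2.07, 0.58, 0.33, -0.67 and -0.48. The 119 H/ACA box snoRNAs with a length were all 120 nucleotides or longer, with medians of -0.32 and -0.31 (18 rows at 140 and over) in the same 2 classes, so the families overlap in length in few C/D box rows. The part of length in the tRNA, snoRNA and microRNA results was not tested.

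Other noncoding RNAs differed in both directions. RNY5 had 25677 and 15810 counts, a log2 ratio of 1.15 (1.12 to 1.18), and RNY1 had 7793 and 42623, 0.249-fold (0.243 to 0.255) of the sensitive level; both are Y RNAs, which bind the Ro60 protein. VTRNA1-1, a vault RNA, had 164 and 69 counts (1.69, 1.28 to 2.12). NEAT1, the scaffold of paraspeckles, had 957 and 4090 counts in untreated resistant and sensitive cells and 998 and 3715 in treated ones, a log2 ratio of -1.65 (-1.75 to -1.55). MALAT1, its neighbour and a nuclear speckle RNA, had 8814 and 10447 counts, a log2 ratio of 0.20 (0.16 to 0.24). NEAT1 was lower in the resistant library of each pair. TALAM1, antisense to MALAT1, had 157 and 43 counts, and the labels do not say whether counting used strand. RNU4-1, the U4 snRNA, had 184 and 694 counts (-1.47, -1.71 to -1.23). RNA18SN1 (1170 and 15462 counts) and RNU6-7 (10 and 300 counts) have near-identical copies, so their ratios are uncertain.

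MicroRNAs of the let-7 family were higher in resistant cells, and a group of GC-rich microRNAs was lower after scaling within the microRNA table. Beyond 2-fold, 26 of 190 were higher (13.7%) and 9 were lower (4.74%). These counts depend on the scaling, with 52 higher and 2 lower by the gene-table size and 10 and 31 by total counts. Of the 190, 174 matched a RefSeq mature sequence. The sequences below, from RefSeq (GRCh38.p14), belong to microRNAs named by the rule, with the seed (bases 2 to 8) in capitals. They show that 6 of the leading microRNAs share 1 seed and that those that were lower are rich in G and C.
let-7a-5p: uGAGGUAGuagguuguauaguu
let-7b-5p: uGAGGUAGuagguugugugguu
let-7c-5p: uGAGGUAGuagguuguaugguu
let-7d-5p: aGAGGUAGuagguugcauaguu
let-7e-5p: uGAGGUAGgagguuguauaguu
let-7f-5p: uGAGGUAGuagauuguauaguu
miR-31-5p: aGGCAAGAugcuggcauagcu
miR-210-3p: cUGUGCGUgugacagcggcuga
miR-222-3p: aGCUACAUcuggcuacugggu
miR-331-3p: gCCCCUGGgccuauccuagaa
miR-1306-5p: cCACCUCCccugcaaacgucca
miR-296-5p: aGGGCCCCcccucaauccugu

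Let-7 microRNAs repress growth and developmental timing genes. Let-7a-5p had 3850 counts in untreated resistant and 236 in untreated sensitive cells, and 7113 and 98 in treated resistant and sensitive cells. Let-7b-5p had 1433 and 79 counts untreated and 2708 and 44 treated, and let-7c-5p had 626 and 23 untreated and 1276 and 9 treated. In all 3 the resistant library was the higher one with and without drug. Their untreated log2 ratios were 3.28 (3.10 to 3.48), 3.43 (3.11 to 3.78) and 3.99 (3.43 to 4.69). Of 9 microRNAs with the seed GAGGUAG, 7 were higher beyond 2-fold, and the sum of their counts gave a log2 ratio of 3.24 (3.10 to 3.39). Near-identical let-7 sequences can exchange reads, so single members are less certain than the sum.

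MiR-31-5p had 249 and 13 counts in untreated resistant and sensitive cells and 760 and 9 in treated ones, a log2 ratio of 3.47 (2.72 to 4.45). MiR-210-3p, a hypoxia-induced microRNA, had 50 and 1 counts untreated and 242 and 0 treated, a log2 ratio of 4.33 (2.36 to 10.2). MiR-222-3p had 408 and 45 counts (2.42, 1.99 to 2.92), and miR-221-3p, of the same seed and cluster, had 83 and 10 (4.75-fold, 2.57 to 10.7). The resistant library was the higher one in each. MiR-331-3p had 15 and 81 counts in untreated resistant and sensitive cells and 159 and 47 in treated ones, a log2 ratio of -3.14 (-4.08 to -2.37), and miR-296-5p had 94 and 246 untreated and 140 and 77 treated, one of -2.12 (-2.49 to -1.78). The treated microRNA tables held 59045 and 4395 counts in resistant and sensitive cells, so raw counts and scaled ratios differ in direction there. Of the microRNAs named by the rule and called beyond 2-fold, all 12 that were higher and all 5 that were lower had a treated interval on the same side of 0.

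GC content of the mature sequence moved with the ratio. Over 107 microRNAs with at least 10 counts in an untreated library, Pearson's r across microRNAs was -0.613 and Spearman's rho -0.647, and in the treated pair r was -0.549 over 173. These microRNAs share the 2 libraries of their pair and are not independent. Below 45% GC the median log2 ratio was 2.55 over 17 microRNAs, of which 10 were higher beyond 2-fold and 0 lower. From 45% to under 55% it was 1.49 over 40, from 55% to under 65% it was -0.33 over 26, and at 65% and over it was -0.76 over 24, with 0 higher and 3 lower. Of 18 hairpins with at least 10 counts in an untreated library for each arm, 7 had arms of opposite sign. Signs depend on the scaling: by the gene-table size every microRNA ratio and class median is 1.19 higher in log2. The order of the arms and of the GC classes stays the same. In 15 of the 18 GC content was known and unequal, and the arm of lower GC had the higher ratio in 11 and the lower ratio in 4. MiR-574-5p, with 47.8% GC, had 126 and 21 counts (1.82, 1.17 to 2.58), while miR-574-3p, with 59.1% GC, had 548 and 493 counts and a log2 ratio of -0.59. Likewise let-7d-5p (40.9% GC) had a log2 ratio of 2.69 and let-7d-3p (50% GC) one of -0.92. In let-7i the order was the other way, with 2.43 for the 5p arm (40.9% GC) and 2.96 for the 3p arm (59.1% GC). With the median of the GC class subtracted, an alternative chosen after seeing the data, 5 of the 26 microRNAs that were higher stayed beyond 2-fold, namely let-7b-5p, let-7i-3p, miR-193a-5p, miR-210-3p and miR-31-5p. The part of GC content in the microRNA results beyond this was not tested.

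**Figure D5:**
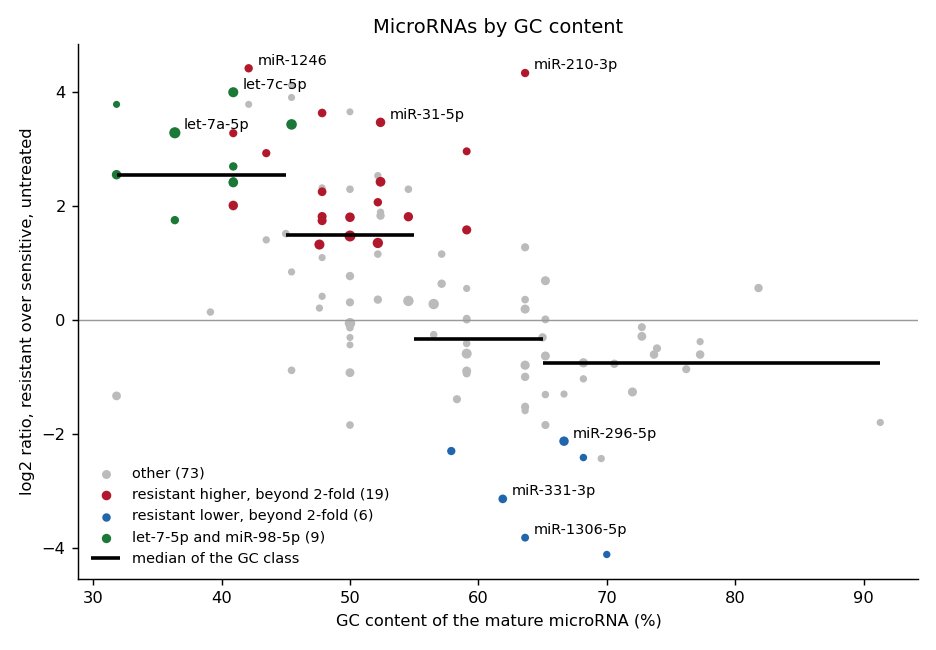
Log2 ratio, resistant over sensitive without drug (y axis), against GC content of the mature microRNA in percent (x axis) for 107 microRNAs; point size grows with the log of the higher count and black lines are medians of 4 GC classes. The medians run from 2.55 below 45% GC to -0.76 at 65% and over, with miR-210-3p at 4.33 among GC-rich ones.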

How the data were processed

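Raw read counts per gene and per mature microRNA were deposited by the authors for each library, with no normalization, per the file headers. SMARTer smRNA-Seq libraries of column-purified total RNA were sequenced on an Illumina NextSeq, per the labels' protocols. The genome build hg19 comes from the submitters' processing notes. Which aligner and counter were used, whether strand was used and how multiply matching reads were treated was not stated in the labels or headers.

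Rows with at least 10 counts in any of the 4 libraries were used. TMM factors came from all 4 libraries (edgeR 4.0.16, R 4.3.3), separately for the 2 tables. Log2 ratios and folds used a prior count of 0.5, and intervals are exact conditional Clopper-Pearson 95% intervals (scipy 1.17.1). Reads amplified by PCR and lacking molecular identifiers do not stand for separate molecules, so intervals and floors cover counting error only. Each group has 1 library, so no difference has a replicate check and no p-value is given.

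The leading genes were the 20 higher and 20 lower protein-coding genes, among those reaching 50 counts in the higher untreated library, ranked by the bound nearest 0, without identical rows or rows overlapping a small RNA gene; for other biotypes up to 5 each way, for microRNAs up to 12 each way with at least 20 counts. Further genes of the 34 gene lists were named by the same ranking within a list, and some members and arms of hairpins were chosen after their values were seen. A few of the genes picked by the naming rule are left out here. Members, lists and tests were chosen with earlier results of these data known. Lists are described by counts and medians beside all protein-coding genes. GENCODE release 29 and RefSeq GRCh38.p14 supplied lengths, GC content, overlaps and sequences, matched by name and identifier; no hg19 coordinates were used. Median-of-ratios factors (DESeq2 1.42.0), total counts and other filters were tried as alternatives.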

Additional observations from a re-analysis of the deposited data

Results flagged for a closer look

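In 7 named genes the untreated pair was beyond 2-fold in 1 direction while the counting interval of the encorafenib pair lay wholly on the other side of 0; the difference between the pairs was not tested. ITGA2, the collagen-binding integrin subunit, had 131 and 45 counts in untreated resistant and sensitive cells (1.98, 1.49 to 2.51) and 55 and 114 in treated ones (-1.54, -2.04 to -1.07). DPYSL2, the microtubule-binding protein, had 8 and 58 counts untreated (-2.34, -3.69 to -1.34) and 18 and 2 treated (2.39, 0.61 to 5.83). SNORA23, an H/ACA box snoRNA, had 4687 and 727 counts untreated (3.13, 3.02 to 3.25) and 640 and 701 treated (-0.62, -0.78 to -0.47). TALAM1 had 157 and 43 counts untreated (2.30, 1.82 to 2.84) and 88 and 91 treated (-0.54, -0.98 to -0.10), and it overlaps MALAT1 on the other strand. The other 3 have near-identical copies, and the split of reads among copies is uncertain. RNA45SN2 had log2 ratios of 1.08 untreated and -1.47 treated, RNA18SN1 of -3.28 and 8.08, and RNU6-7 of -4.39 and 2.35.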

How the results depend on the processing

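No paired analysis was possible because each group has 1 library. Median-of-ratios factors, TMM from the 2 untreated libraries and 1 row per identical set kept every count of genes and microRNAs within 1.5 times its value. With at least 50 counts in any library, fewer rows were eligible, and 52 gene-table rows were lower in place of 102; protein-coding genes were 40 higher and 21 lower in place of 80 and 64, and 2 microRNAs were lower in place of 9. MicroRNA calls depended on scaling: 10 were higher and 31 lower by total counts (a shift of -0.82 in log2), 52 and 2 by the gene-table size (a shift of 1.19), and 5 and 14 with the median of the GC class subtracted, which was chosen after seeing the data. Of 40 named genes 0 and of 24 named microRNAs 1 changed direction under the scalings tried. That microRNA, let-7d-3p, was not beyond 2-fold and had -0.92 and, by the gene-table size, 0.27. MicroRNAs outside the 24, such as miR-574-3p, were not part of this count.

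Yields sum every row, identical rows included, whereas the anticodon sums kept identical rows once. Yields depend on the denominator, and snRNA here includes snaR and 7SK RNA. Per read outside rRNA they were 0.899 for protein-coding genes, where the direction reversed, 1.12 for snoRNA, 0.680 for snRNA, 0.560 for lncRNA, 0.704 for Y RNA, 5.09 for tRNA and 3.54 for the microRNA table. Per protein-coding read they were 1.25 for snoRNA, 0.757 for snRNA, 0.623 for lncRNA, 0.783 for Y RNA, 5.66 for tRNA, 0.898 for rRNA and 3.94 for the microRNA table. The main values were 1.10, 1.37, 0.831, 0.683, 0.859, 6.22 and 4.32 in the first order, and 0.985 for rRNA. List medians stayed within the medians of their members' interval bounds, but 5 of 30 changed sign in at least 1 alternative: the neural crest median was -0.998 in place of 0.16 and the matrix median -0.29 in place of 0.25 with at least 50 counts, and those of MAPK outputs (-0.01), YAP-TEAD genes (-0.08) and the BCL2 family (-0.09) turned positive, with values of up to 0.09. Depth limits the protein-coding results: 1659 of 7916 genes had at least 50 counts in the higher untreated library.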
